A study of Mus musculus with 9 samples.

Results

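Hmox1, Nqo1, Srxn1, Txnrd1, Slc7a11, Gclm, Gclc, Gpx4, Fth1 and Ftl1 are the genes described here. They were picked by symbol from the NRF2 response, glutathione metabolism and iron storage, and are 10 of the 30406 gene IDs held by the gene tables of all 9 libraries. The study asked how loss of the circadian regulators PER1 and PER2 changes the conversion of mouse embryonic fibroblasts (MEFs) into induced neurons (iNs). Each library was a 3′ single-cell RNA library of 1 culture, and WT, Per1-/- and Per2-/- MEFs were each sampled once on days 4, 7 and 10 of reprogramming. All 9 cultures, WT included, carried doxycycline-driven lentiviruses for neuronal reprogramming factors. The knockout alleles were Per1tm1Drw and Per2tm1Drw, which by the methods of the study came from mouse strains and were not limited to 1 cell type. MEFs came from several embryos pooled without determining their sex, and a library therefore stands for 1 pooled culture and not for 1 animal.

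NRF2, the product of Nfe2l2, is held low by KEAP1 until oxidants or electrophiles free it to bind antioxidant response elements with a small MAF partner, while BACH1 occupies the same elements until heme displaces it. Its targets make and spend thiols: SLC7A11 imports cystine, GCLC and GCLM join cysteine to glutamate in the limiting step of glutathione synthesis, and GPX4 uses glutathione to reduce lipid peroxides in membranes and so holds off ferroptosis. FTH1 and FTL1 build the ferritin shell that stores iron, which macrophages take up in quantity when they clear dying cells and break down heme.

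The cells were assigned to classes by markers after clustering without the 10 genes. A total of 73501 cells were kept of 95603 barcodes. Neuron-like cells numbered 288 to 1822 per library, macrophage-like cells 153 to 1397 and fibroblast-like cells 2303 to 6039, and these are called neurons, macrophages and fibroblasts from here on. Of the neuron markers, 19 of 20 stood at 10 CPM (the counts of a gene scaled to the UMI total of the class in a library) or more in every library in neurons, as did 17 of 17 macrophage markers in macrophages and 20 of 20 fibroblast markers in fibroblasts. By the same measure neurons also held 14 of 20 fibroblast markers, macrophages 8 of 20, and fibroblasts 3 of 20 neuron markers. Libraries held 126625215 to 353198559 UMI, and the median per cell kept ran from 14196.5 UMI in WT day 10 to 27244 in Per1-/- day 4. Of 27 clusters, 9 stayed unnamed, with 754 to 2270 cells per library. In 6 of them (173 to 5406 cells) the naming rules gave no class. The largest of these held 19 of 20 fibroblast markers in at least 50% of its cells and met the rule for fibroblasts. It was left unnamed because its leading genes included a neuron marker (Nefm) and no fibroblast marker. The other 3 had over 25% called doublets. One of these, with 1030 cells and 63.4% doublets, had 17 of 17 macrophage markers at least 2-fold above all other cells, and its part in the macrophage results was not tested. Another held neuronal genes and many called doublets, and it is the one counted as neurons in an alternative below. It held 0.66 to 4.01% of the cells kept in 8 libraries and 6.83% in WT day 10, where its 381 cells outnumbered the 288 neurons. The libraries labelled Per1-/- held more Per1 (9.14 to 10.3 CPM) than WT (6.31 to 7.88), and those labelled Per2-/- held more Per2 (4.97 to 6.40) than WT (2.58 to 3.05). The sources used here do not say whether the counted 3′ ends lie outside the deleted parts (the study showed the loss of each protein in its MEFs by western blotting, which is not analysed here), in which case these levels check nothing, so the genotypes below are those of the labels. A barcode was shared with another library by 1332 of the cells kept (1.81%), at 9 to 29 per pair of libraries (13 to 365 over all barcodes).

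Among neurons, macrophages and fibroblasts, macrophages had the highest Fth1, Ftl1 and Hmox1 levels and fibroblasts the highest median Nqo1 and Slc7a11 levels, and for none of the 10 genes did all neuron libraries lie above both other classes (the plot of levels by class). Summed per class and library and compared within libraries by edgeR's quasi-likelihood test, 9 of the 10 genes were lower in neurons than in macrophages and 0 were higher, where 39.4% of all 16401 genes tested were lower and 46.8% higher. Against fibroblasts, neurons had 2 of the 10 higher (Txnrd1 and Gclc) and 6 lower, with 38.3% of all genes higher and 41.6% lower. In macrophages against fibroblasts, 8 were higher and 2 lower (Nqo1 and Slc7a11), with 36.1% and 45.8% of all genes. Since more than 3 in 4 genes pass such a test, the sizes and the per-library levels say more than the counts. The classes of a library share its culture and run, and p-values here measure the spread between these 9 libraries only.

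**Figure D1:**
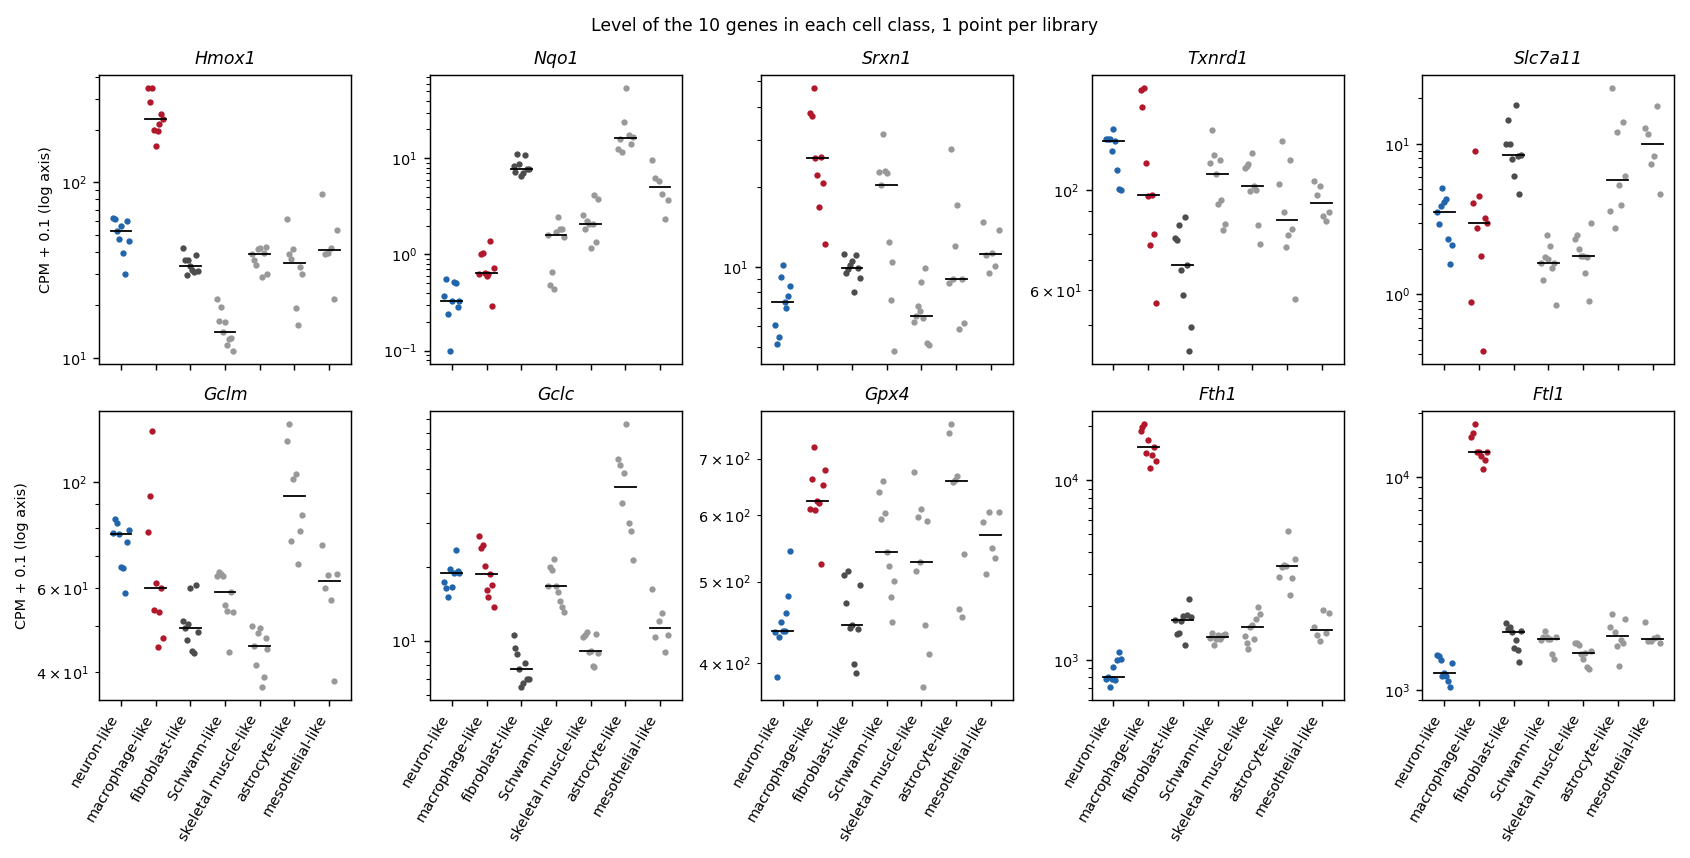
Level of each gene in 7 cell classes, in CPM plus 0.1 on a log axis, with 1 point per library and a black line at the median. For Fth1, Ftl1 and Hmox1 the macrophage points lie above those of all other classes, and for Nqo1 the neuron and macrophage points lie below the fibroblast points.

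How the class sums are scaled changes some of these results. The trimmed-mean (TMM) factors ran from 1.26 to 1.40 in neurons, 0.758 to 0.922 in macrophages and 0.883 to 0.997 in fibroblasts. With library totals alone the median log2 difference over all genes tested moved from 0.17 to 0.83 for neurons against macrophages, a shift of 0.66, and by 0.46 for neurons against fibroblasts and -0.20 for macrophages against fibroblasts. The share of calls that were higher in neurons went from 54.3% to 71.05% against macrophages and from 47.9% to 66.5% against fibroblasts. DESeq2's size factors moved the same 3 medians by 0.13, 0.13 and -0.002. Log2 folds are therefore given on the TMM scale, and levels in CPM are on the UMI total of the class in a library. Library totals in this text mean these class totals. A gene whose direction differs between the scales is named as such.

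Of the 10 genes, the ferritin genes had the largest log2 differences between neurons and macrophages. Fth1, which encodes the heavy chain that oxidises iron for storage, stood at 709, 803 and 1110 CPM in neurons (lowest, median and highest of 9 libraries), at 11690, 15240 and 20590 in macrophages and at 1204, 1660 and 2195 in fibroblasts. The ranges of the classes did not overlap for any pair. Fth1 was 28.5-fold lower in neurons than in macrophages (log2 -4.83 ± 0.12 SE, edgeR adjusted p = 9.96e-19), lower in 9 of 9 libraries. It was also 2.56-fold lower in neurons than in fibroblasts (log2 -1.36 ± 0.10, edgeR adjusted p = 8.28e-11), while macrophages exceeded fibroblasts 11.1-fold.

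Ftl1 encodes the light chain that helps the shell take up its mineral core. It ran from 1033 to 1465 CPM in neurons with a median of 1198, from 10970 to 17820 with a median of 13110 in macrophages, and from 1350 to 2067 with a median of 1864 in fibroblasts. Neurons and macrophages did not overlap, whereas the highest neuron libraries reached into the fibroblast range. The fold was 17.2 lower in neurons than in macrophages (log2 -4.11 ± 0.07, edgeR adjusted p = 5.37e-21) and 1.94 lower than in fibroblasts (log2 -0.96 ± 0.06, edgeR adjusted p = 3.69e-12), in 9 of 9 libraries each. Ftl1-ps1, a near-identical copy that the gene table lists as a gene of its own, followed the same order. It stood at 129 to 187 CPM in macrophages, 11.2 to 17.0 in neurons and 16.4 to 24.7 in fibroblasts. How reads common to both copies were counted was not tested. Within a library, macrophages held 691.5 to 899% of the fibroblast level of Ftl1 and 700 to 974% of that of Ftl1-ps1.

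Both ferritin messages carry an iron-responsive element in the 5′ UTR, a stem-loop to which iron regulatory proteins bind when iron is scarce and so block translation. A transcript level therefore need not follow the ferritin protein, and only transcripts were measured here. The letters of the loop, a C, then 5 bases of any kind, CAGTG and 1 more base, were searched on the transcript strand in annotated 5′ UTRs (GENCODE M21 on GRCm38) and are in capitals in the stretches shown, since both ferritin genes are known for this element. The same letters occur in 2251 of 20890 genes with a 5′ UTR (10.8%), so that a match alone describes letters and no working element. Among the other 8 genes, they were found in 1 transcript of Txnrd1.
Fth1, exonic 5′ UTR, chr19:9982730-9982757, plus strand: gtttcctgCTTCAACAGTGCttgaacgg
Ftl1, exonic 5′ UTR, chr7:45459782-45459809, minus strand: gtgtcttgCTTCAACAGTGTttgaacgg
Txnrd1-205, exonic 5′ UTR, chr10:82833951-82833974, plus strand: caggCTCCACCAGTGCttctgcag

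Hmox1, the inducible heme oxygenase that opens heme and frees its iron, stood apart in macrophages too. Its level was 161, 230 and 347 CPM in macrophages (lowest, median and highest), 30.01, 52.9 and 62.3 in neurons and 29.7, 33.2 and 42.1 in fibroblasts. Macrophages lay above both other classes without overlap, and neurons and fibroblasts overlapped. On the TMM scale Hmox1 was 7.58-fold higher in macrophages than in neurons (neurons against macrophages log2 -2.92 ± 0.10, edgeR adjusted p = 1.2e-16). It was 8.01-fold higher than in fibroblasts on that scale (log2 3.002 ± 0.10, edgeR adjusted p = 9.05e-17). In CPM neurons held 13.9 to 35.2% of the macrophage level of the same library. Neurons and fibroblasts did not differ by the test (log2 0.08 ± 0.09, edgeR adjusted p = 0.433), although with library totals alone neurons were higher (log2 0.54, edgeR adjusted p = 0.000108). After every cell was thinned to 3000 UMI, a median of 40.6% of macrophages, 14.6% of neurons and 9.61% of fibroblasts had an Hmox1 UMI (90.3%, 41.1% and 47.7% before thinning).

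Free RNA from macrophages can put their transcripts into neuron droplets, and macrophage markers in neurons are given here beside the members. In neurons, C1qa and Lyz2 stood at medians of 0.294% and 0.316% of their macrophage level and at 0.831% at most. The corresponding medians for the members were 5.54% for Fth1, 9.08% for Ftl1 and 20.1% for Hmox1, and the lowest of any library was 3.44% for Fth1. The part of free RNA in these levels was not tested. All 17 macrophage markers together summed to 23.5 to 203 CPM in neurons against 24130 to 31910 in macrophages, and 9 of them, Csf1r and Adgre1 included, were under 10 CPM in every library. The fibroblast markers summed to 939 to 2319 CPM in neurons, 325 to 1001 in macrophages and 24030 to 47270 in fibroblasts, and their part in the neuron levels was not tested. Hemoglobin and other erythroid markers reached at most 1.57 CPM in neurons and less in the other 2 classes.

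Srxn1, sulfiredoxin, which repairs over-oxidised peroxiredoxins, followed the ferritin order at a much lower level. Macrophages held 12.1, 25.6 and 47.1 CPM (lowest, median and highest), neurons 5.001, 7.28 and 10.1, and fibroblasts 7.96, 9.78 and 11.1. The macrophage range lay above the other 2, and neurons overlapped fibroblasts. Srxn1 was 5.61-fold lower in neurons than in macrophages (log2 -2.49 ± 0.19, edgeR adjusted p = 1.09e-10) and 1.88-fold lower than in fibroblasts (log2 -0.91 ± 0.18, edgeR adjusted p = 0.000131), in 9 of 9 libraries each.

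Txnrd1, the cytosolic selenoenzyme that recharges thioredoxin, was high in neurons. Neurons held 99.9, 129 and 136 CPM, macrophages 56.0, 97.3 and 169, and fibroblasts 43.8, 67.9 and 87.1. Every neuron library exceeded every fibroblast library, while the macrophage range covered that of neurons. Neurons were 1.31-fold above fibroblasts (log2 0.39 ± 0.11, edgeR adjusted p = 0.00212), in 8 of 9 libraries on the TMM scale and 9 of 9 in CPM. Against macrophages neurons were lower on the TMM scale (log2 -0.47 ± 0.11, edgeR adjusted p = 0.000409, 8 of 9 libraries), but the sign turned with library totals alone (log2 0.18, edgeR adjusted p = 0.169), and in CPM neurons were higher in 6 of 9 libraries.

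Slc7a11 encodes the cystine importer. Fibroblasts held 4.56, 8.28 and 17.9 CPM, neurons 1.49, 3.43 and 5.01, and macrophages 0.324, 2.90 and 8.90. These are low levels, with 2 to 142 UMI per library in macrophages, and the 3 ranges overlapped. Within libraries Slc7a11 was 4.15-fold lower in neurons than in fibroblasts (log2 -2.05 ± 0.32, edgeR adjusted p = 6.2e-06) and 2.64-fold lower in macrophages than in fibroblasts (log2 -1.40 ± 0.32, edgeR adjusted p = 0.000431), in 9 of 9 libraries each. Neurons and macrophages were not told apart (log2 -0.66 ± 0.35, edgeR adjusted p = 0.0853), and neurons were lower in 5 of 9 libraries.

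Gclc and Gclm encode the catalytic and the modifier subunit of the same ligase. Gclc stood at 15.02, 18.7 and 23.3 CPM in neurons, 13.6, 18.6 and 26.7 in macrophages and 6.39, 7.58 and 10.5 in fibroblasts. Fibroblasts lay below both other classes without overlap, and neurons exceeded them by log2 0.76 ± 0.10 (1.69-fold, edgeR adjusted p = 9.91e-07) and macrophages by 1.47 ± 0.10 (2.77-fold, edgeR adjusted p = 3.3e-11). Gclm stood at 58.6, 77.8 and 83.7 CPM in neurons, 45.0, 59.95 and 128 in macrophages and 43.8, 49.3 and 60.7 in fibroblasts, with overlap between all 3. Gclm did not pass between neurons and fibroblasts (log2 0.09 ± 0.11, edgeR adjusted p = 0.494), while with library totals alone neurons were higher (log2 0.55, edgeR adjusted p = 0.000577). On the TMM scale neurons were below macrophages for Gclc (log2 -0.71 ± 0.11, edgeR adjusted p = 2.77e-06) and Gclm (log2 -0.48 ± 0.12, edgeR adjusted p = 0.000645). With library totals alone the Gclc difference was -0.06 (edgeR adjusted p = 0.629) and the Gclm difference turned to 0.16 (edgeR adjusted p = 0.236).

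Gpx4, the lipid peroxide reductase, stood at 385, 437 and 543 CPM in neurons, 525, 623 and 722 in macrophages and 389, 444 and 515 in fibroblasts. Every macrophage library exceeded every fibroblast library, while neurons and fibroblasts covered the same range. On the TMM scale macrophages were above fibroblasts by log2 0.66 ± 0.07 (edgeR adjusted p = 3.2e-08). They were above neurons by 2.20-fold on that scale (neurons against macrophages log2 -1.14 ± 0.07, edgeR adjusted p = 4.25e-12). In CPM neurons held 58.2 to 87.5% of the macrophage level of the same library. Neurons fell below fibroblasts on the TMM scale (log2 -0.48 ± 0.07, edgeR adjusted p = 3.43e-06), a call that library totals alone ended (log2 -0.02, edgeR adjusted p = 0.809).

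Nqo1, the quinone reductase often used as a readout of NRF2, was close to undetected in neurons and macrophages. Neurons held 35 Nqo1 UMI in all 9 libraries together, with 0 in WT day 7 (a level of up to 0.228 CPM by a floor of 3 UMI) and 0.461 CPM at most, while macrophages held 0.193 to 1.30 CPM and fibroblasts 6.53 to 10.9. Neither class overlapped fibroblasts. Nqo1 was 42.3-fold lower in neurons (log2 -5.40 ± 0.27, edgeR adjusted p = 1.34e-13) and 11.7-fold lower in macrophages (log2 -3.55 ± 0.23, edgeR adjusted p = 8.96e-12) than in fibroblasts, in 9 of 9 libraries each. In neurons Nqo1 stood at a median of 3.28% of its fibroblast level, beside 2.62% for Col1a1 and 3.49% for Col3a1, collagens of fibroblasts. Whether the neuron level is background or the cells' own was not tested, and the 42.3-fold rests on 35 UMI in neurons. In macrophages Nqo1 stood at 7.67% of its fibroblast level and the same collagens at 1.92% and 2.15%. Neurons were also below macrophages (log2 -1.85 ± 0.34, edgeR adjusted p = 3.57e-05). That call ended with a coarser clustering (log2 -0.54, edgeR adjusted p = 0.117) and when the unnamed doublet-rich cluster was counted as neurons (log2 -0.36, edgeR adjusted p = 0.193). At the coarser clustering neurons included a cluster led by Gcg, Nts and Pln with 24.2% called doublets.

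**Figure D2:**
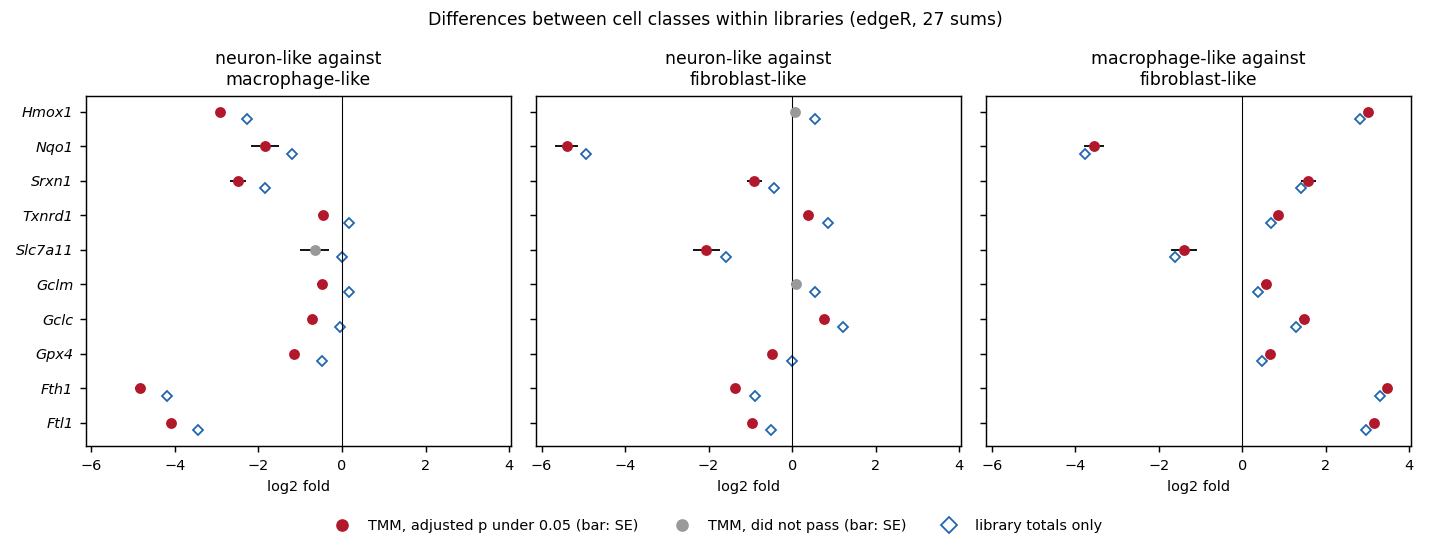
Log2 fold of each gene between pairs of classes within libraries, with circles for the TMM scale (red where the edgeR adjusted p is under 0.05, grey where not, bars showing SE) and open diamonds for library totals alone. Fth1 and Ftl1 lie at -4.83 and -4.11 in neurons against macrophages, and the diamonds of Txnrd1 and Gclm cross 0 in the same panel.

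The promoter windows of these genes, from 250 bases before to 50 after the start site, were searched on both strands for the core letters of the antioxidant response element, TGACNNNGC and TGAGNNNGC. RefSeq windows on GRCm38.p6 were at hand for 8 of the 10 genes, all but Hmox1 and Gclc. Of these, 4 held such letters in either form, Srxn1, Txnrd1, Slc7a11 and Gclm. Each form alone occurs in 12.4% (TGACNNNGC) and 17.65% (TGAGNNNGC) of all 32851 windows. The share of windows with either form was not computed, so the count of 4 has no like share beside it. They are shown because NRF2 binds such letters, with the core in capitals and the first base given from the start site. A match says nothing of binding in these cells, and elements farther away were not searched.
Srxn1, -45, chr2:152105471-152105495, plus strand: attcacccTGAGTCAGCggccgggc
Srxn1, 29, reverse core, chr2:152105544-152105568, plus strand: agtgggcaGCTAGGTCAgagtgaga
Srxn1, -158, reverse core, chr2:152105358-152105382, plus strand: tactgagaGCCGACTCAtcctctct
Gclm, -134, reverse core, chr3:122245415-122245439, plus strand: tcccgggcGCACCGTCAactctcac
Txnrd1, -92, reverse core, chr10:82859106-82859130, plus strand: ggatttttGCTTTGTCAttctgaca
Slc7a11, -97, reverse core, chr3:50443694-50443718, minus strand: atgttggcGCTTTCTCAagctggag

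The first of the Srxn1 matches overlaps an AP-1 site (TGAGTCA, in 5.20% of windows), and a second AP-1 site starts at -102. Slc7a11 is also a target of ATF4, the factor of the amino acid response, and its window alone among the 8 held the letters TGATGNAA of an amino acid response element, which occur in 3.97% of all windows. Both matches are shown for comparison with the amino acid response genes given further on.
Slc7a11, -66, chr3:50443664-50443687, minus strand: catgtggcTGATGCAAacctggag
Slc7a11, -47, reverse core, chr3:50443645-50443668, minus strand: tggagaatTTGCATCAtcatgcag

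The 4 smaller classes placed the genes in other orders, given as levels with no test, and only libraries with at least 50 cells of a class were used (8 for astrocyte-like and 6 for mesothelial-like cells). Astrocyte-like cells had the highest medians of all 7 classes for Nqo1 (16.2 CPM, 11.5 to 54.4), Gclc (42.1, 21.2 to 76.0), Gclm (93.4, 67.3 to 132) and Gpx4 (658.5, 453 to 769.5), and came second for Fth1 (3313, 2298 to 5227). The cluster of these cells had 22.1% called doublets, under the 25% limit, and their mitochondrial share was 7.26 to 11.35% of UMI per library, against 5.38 to 7.04% in fibroblasts, and the part of both in these levels was not tested. For Nqo1 even the lowest astrocyte-like library exceeded the highest fibroblast library, whereas for Gclc, Gclm and Gpx4 the astrocyte-like range overlapped those of macrophages and neurons. Ftl1 outside macrophages was highest in fibroblasts, with medians of 1198 to 1864 over those 6 classes. Schwann-like cells had the lowest Hmox1, at 13.9 CPM (10.9 to 21.6), and the second highest Srxn1, at 20.2 (4.73 to 31.5), which overlapped the macrophage range. Slc7a11 was highest in mesothelial-like cells (9.84, 4.54 to 17.7) and in fibroblasts, which do not differ beyond their spread. Skeletal muscle-like cells held Slc7a11 at 1.71 and Nqo1 at 1.96 CPM.

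Macrophages were not uniform. Their largest cluster was led by Fcrls, Pf4 and C1qa, one by histone genes and Mki67, and another by Ighm, Siglech and Cx3cr1. The Ighm and Siglech cluster had enough cells in 5 libraries, none of day 4, and is set against the first cluster in those libraries only. There, Hmox1 stood at 324 to 434 CPM against 158 to 248.5 in the first cluster, and Gclm at 23.7 to 39.0 against 47.3 to 63.8, with no overlap in either. The cycling cluster also had enough cells in 5 libraries, where Txnrd1 was higher than in the first cluster in each, at 113 to 206 against 69.2 to 131 CPM. Among neurons, the cluster led by Scg2, Nts and Vgf held more Ftl1 than the cluster led by Igfbpl1, Nrxn3 and Neurod6, with 1618 against 962 CPM at the median.

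From day 4 to day 10, Srxn1, Txnrd1, Gclm and Gclc fell in macrophages, while Fth1, Gpx4, Gclc and Srxn1 rose in neurons (the plot of levels by day). In this comparison the 3 genotypes of a day served as its repeats, with genotype as a factor. The test is of the average change over the genotypes, which need not hold in each of them. The files of day 10 name another version of Cell Ranger and another gene table than those of days 4 and 7, and within a class day 10 cannot be told apart from that difference. Classes of the same library share their version and gene table.

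**Figure D3:**
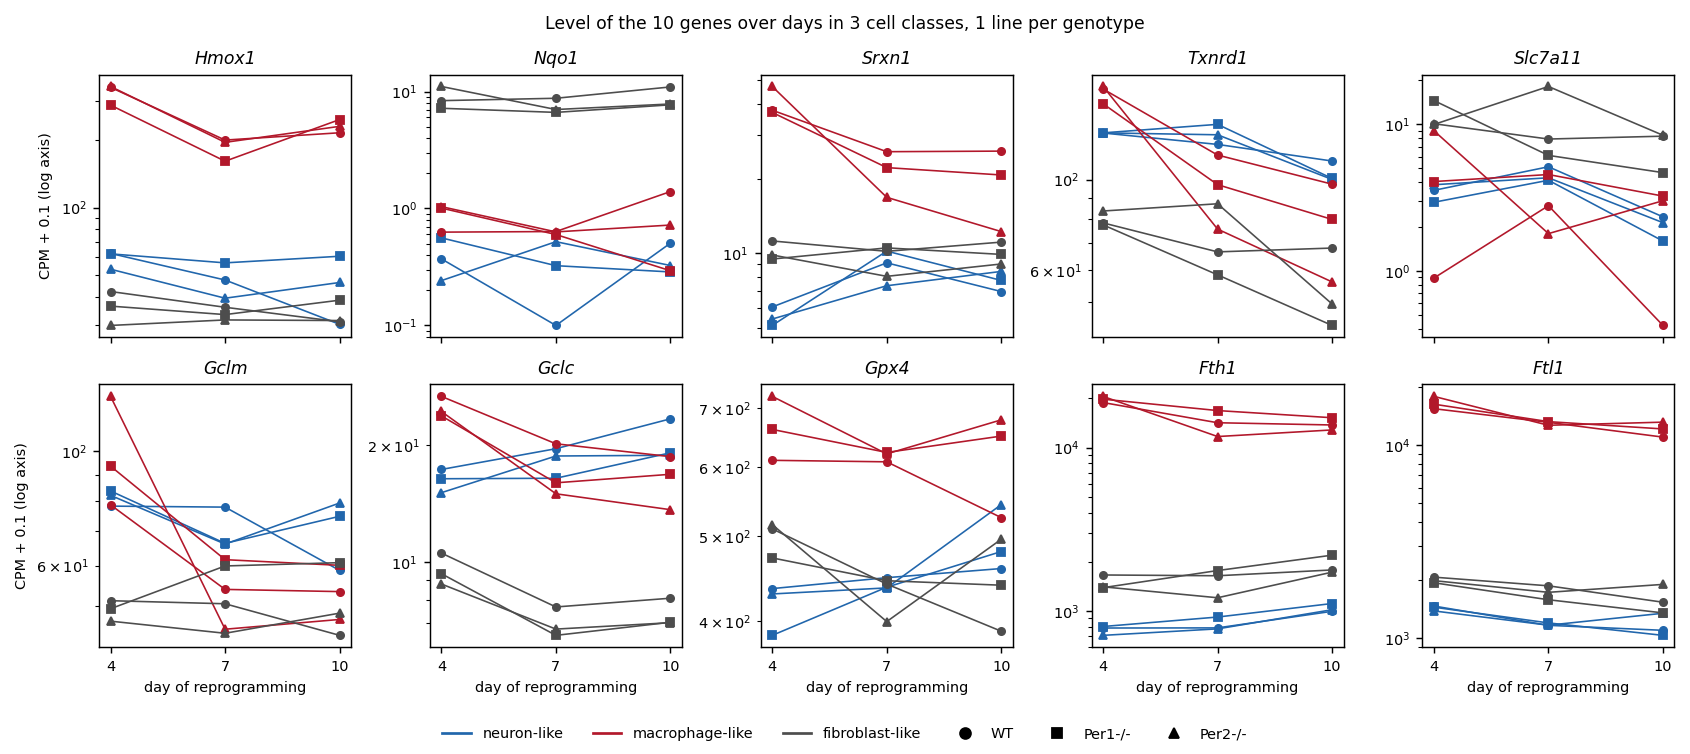
Level of each gene on days 4, 7 and 10, in CPM plus 0.1 on a log axis, with colours for neurons (blue), macrophages (red) and fibroblasts (grey) and 1 line and marker per genotype. The red lines of Srxn1, Txnrd1, Gclm and Gclc start above their later values in all 3 genotypes, and the blue lines of Fth1 end above their start.

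In macrophages, day 10 against day 4 lowered 4 of the 10 genes and raised 0, where 7.31% of all 12809 genes tested were lower and 8.1% higher. Srxn1 stood at 37.7, 37.0 and 47.1 CPM on day 4 (WT, Per1-/- and Per2-/-), 25.6, 22.1 and 16.7 at day 7 and 25.8, 20.6 and 12.1 on day 10. Each day 4 value exceeded all later ones. The decrease to day 10 was log2 -1.05 ± 0.23 (edgeR adjusted p = 0.0212). Txnrd1 went from 167, 153 and 169 CPM on day 4 to 115, 97.1 and 75.5 at day 7 and 97.3, 79.8 and 56.0 on day 10, again without overlap of day 4 with the later days (log2 -1.04 ± 0.15 to day 10, edgeR adjusted p = 0.00513). This was the only one of the 4 that passed under all 17 alternatives.

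Gclm in macrophages stood at 78.6, 93.5 and 128 CPM on day 4, 53.8, 61.5 and 45.0 at day 7 and 53.3, 59.95 and 47.0 on day 10 (log2 -0.83 ± 0.19 to day 10, edgeR adjusted p = 0.0247). Gclc went from 26.7, 23.7 and 24.4 CPM to 20.1, 15.9 and 14.9 and then 18.6, 16.8 and 13.6 (log2 -0.54 ± 0.12, edgeR adjusted p = 0.023). For both genes the step lay between days 4 and 7. Even so, against day 4 none of the 10 genes passed on day 7, where 0.367% of all genes did: 47 genes, with 2539 at an unadjusted p under 0.05 and 486 by DESeq2. Of the 10, DESeq2 called 5 on day 7. The day 7 values were -0.91 ± 0.22 for Srxn1 (edgeR adjusted p = 0.0927), -0.75 ± 0.15 for Txnrd1 (0.0674), -0.86 ± 0.19 for Gclm (0.0861) and -0.77 ± 0.13 for Hmox1 (0.0524).

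Hmox1, Fth1 and Ftl1 in macrophages narrowly missed the threshold on day 10. Hmox1 stood at 344, 286 and 347 CPM on day 4, 200, 161 and 195 at day 7 and 215, 247 and 230 on day 10 (log2 -0.41 ± 0.13, edgeR adjusted p = 0.0574). Fth1 stood at 18880, 19800 and 20590 CPM on day 4 and at 13760, 15240 and 12830 on day 10 (log2 -0.44 ± 0.13, edgeR adjusted p = 0.0572). Day 4 lay above day 10 without overlap in both. With library totals alone, with doublets kept, with the coarser clustering and by DESeq2, 7 of the 10 genes passed in place of 4. The coarser clustering kept an unnamed cluster with histone genes, Mki67 and 17 raised macrophage markers out of macrophages (51.0% called doublets). The share of all calls that were higher moved from 52.6% to 37.7% with library totals alone, and on day 7 from 70.2% to 55.8%. With Y-linked transcripts as a covariate 1 passed, as it did without the WT or the Per2-/- day 10 library, and 2 passed without the Per1-/- day 10 library.

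The mix of macrophage clusters shifted at the same time. Cells of the cycling cluster made up 19.6 to 27.6% of macrophages on day 4, 7.8 to 20.3% at day 7 and 3.92 to 13.9% on day 10. The levels also differed within the Fcrls and Pf4 cluster alone. There, Srxn1 went from 44.9, 35.6 and 50.4 CPM on day 4 to 28.2, 20.8 and 12.7 on day 10, Txnrd1 from 145, 131 and 141 to 91.9, 72.2 and 56.4, and Fth1 from 20150, 21450 and 22060 to 14510, 15570 and 12560. Gclm went from 85.6, 92.3 and 131 CPM to 62.5, 61.4 and 53.5, and Gclc from 26.8, 22.1 and 22.9 to 18.2, 16.4 and 12.7. Day 4 and day 10 did not overlap for any of these 5 genes.

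In neurons, 9 of the genes could be tested, as Nqo1 failed the filter on low counts. By day 10, Fth1, Gclc, Gpx4 and Srxn1 were higher than on day 4, and Txnrd1 and Slc7a11 were lower, which makes 4 and 2 of 9 beside 21.7% and 19.7% of all 14590 genes tested. Fth1 stood at 786, 803 and 709 CPM on day 4, 787, 917 and 777 at day 7 and 995, 1110 and 1017 on day 10, with all 3 libraries of day 10 above the rest (log2 0.51 ± 0.09, edgeR adjusted p = 0.00137). Its change passed under all 17 alternatives. Macrophage markers in neurons were also higher on day 10, with sums of 26.5, 63.1 and 23.5 CPM on day 4, 35.1, 187 and 120 at day 7 and 66.7, 105 and 202.5 on day 10, and their part in the Fth1 change was not tested. Gpx4 went from 435, 385 and 429 CPM on day 4 to 459, 480 and 543 on day 10 (log2 0.31 ± 0.10, edgeR adjusted p = 0.026), and Gclc from 17.3, 16.3 and 15.02 to 23.3, 19.1 and 18.8 (log2 0.39 ± 0.11, edgeR adjusted p = 0.0172). Day 4 and day 10 did not overlap for either.

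Srxn1 in neurons was at 5.96, 5.001 and 5.32 CPM on day 4, 9.04, 10.1 and 7.28 at day 7 and 6.89, 7.66 and 8.34 on day 10. It was the only 1 of the 9 to pass on day 7 (log2 0.66 ± 0.19, edgeR adjusted p = 0.036), where 16.5% of all genes passed, and it passed on day 10 too (log2 0.59 ± 0.19, edgeR adjusted p = 0.032). Txnrd1 fell to 111, 101 and 99.9 CPM from 130 in each library of day 4 (log2 -0.26 ± 0.08, edgeR adjusted p = 0.0239). Slc7a11 fell to 2.23, 1.49 and 2.03 CPM from 3.43, 2.83 and 3.76 (log2 -0.72 ± 0.24, edgeR adjusted p = 0.0363). Ftl1 had 1465, 1445 and 1382 CPM on day 4 and 1097, 1033 and 1344 on day 10, which did not pass (log2 -0.25 ± 0.11, edgeR adjusted p = 0.109).

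The number of neuron calls changed when single libraries were left out. Day 10 had 2 calls without the WT or the Per1-/- day 4 library or the Per1-/- day 10 library, 1 without Per2-/- day 4 and 3 without Per2-/- day 10. The day 7 call of Srxn1 was lost without any 1 of the WT or Per1-/- libraries of days 4 and 7, Per2-/- day 4 or Per1-/- day 10. The make-up of the class changed as well. The cluster led by Igfbpl1, Nrxn3 and Neurod6 held most neurons on day 4 and 25.7 to 44.9% on day 10. Within that cluster, Fth1 went from 726, 750 and 658 CPM on day 4 to 943, 1010 and 972 on day 10, and within the Scg2 and Nts cluster from 917, 942 and 847 to 1045, 1166 and 1049. Gpx4 in the first of these clusters went from 399, 373 and 411 CPM to 375, 440 and 447, with overlap. The Scg2 and Nts cluster made up 24.2 to 26.7% of neurons on day 4 and 37.8 to 54.9% on day 10. Over libraries, its medians were 942 CPM for Fth1, 533 for Gpx4, 19.85 for Gclc, 8.01 for Srxn1, 124.5 for Txnrd1 and 2.64 for Slc7a11. The first cluster had 750, 386, 17.1, 6.33, 123.9 and 4.25 in that order. The part of this mix in the day changes was not tested, and Gclc and Srxn1 are not given by day within clusters.

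In fibroblasts, Txnrd1 and Gclc were lower on day 10 than on day 4 and 0 of the 10 were higher, beside 9.28% and 10.4% of all 16795 genes tested. Txnrd1 stood at 78.2, 77.4 and 83.6 CPM on day 4 and 67.9, 43.8 and 49.5 on day 10 (log2 -0.62 ± 0.14, edgeR adjusted p = 0.0207). Gclc stood at 10.5, 9.25 and 8.70 CPM on day 4 and 7.99, 6.92 and 6.90 on day 10 (log2 -0.42 ± 0.10, edgeR adjusted p = 0.0269). On day 7, 0 of the 10 passed and 2.92% of all genes did, with Gclc nearest (log2 -0.48 ± 0.10, edgeR adjusted p = 0.0508). By DESeq2, 1 of the 10 passed on day 7. Neither day 10 call remained without Per1-/- day 4, Per2-/- day 4 or Per1-/- day 10, and 1 passed without WT day 4, WT day 7, Per1-/- day 7 or WT day 10. The make-up of the class differed between these libraries. A cluster led by Slc14a1 and Tnn held 35.4 to 47.3% of fibroblasts on day 4 and 0.728 to 13.7% on day 10, where one led by Steap4 and Ebf2 held 70.8% in Per1-/- and one led by Pcolce2 and Mia 50.1% in Per2-/-. Within the largest fibroblast cluster, Txnrd1 went from 69.4, 68.1 and 73.2 CPM on day 4 to 50.8, 39.6 and 42.4 on day 10, and Gclc from 9.16, 8.35 and 7.87 to 4.69, 6.53 and 5.26, with no overlap in either.

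The change from day 4 to day 10 itself differed between classes for several of the genes. Between neurons and macrophages, 5 of the 10 passed the test of the difference, where 23.8% of all 16732 genes did. They were Srxn1 (log2 1.54 ± 0.24, edgeR adjusted p = 0.000342), Fth1 (0.83 ± 0.13, 0.000332), Gclc (0.82 ± 0.14, 0.000486), Txnrd1 (0.65 ± 0.22, 0.0397) and Gclm (0.58 ± 0.20, 0.0471), all more positive in neurons in 3 of 3 genotypes. Of these, Srxn1, Fth1 and Gclc passed under all 16 alternatives. Leaving out Per1-/- day 4, Per2-/- day 4 or Per2-/- day 10 gave 3 calls in place of 5.

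Between macrophages and fibroblasts, 3 of the 10 passed beside 7.91% of all genes: Srxn1 (log2 -0.90 ± 0.21, edgeR adjusted p = 0.0178), Gclm (-0.75 ± 0.20, 0.0308) and Fth1 (-0.67 ± 0.13, 0.00687), all lower in macrophages. Without Per1-/- day 4 there was 1 and without Per2-/- day 4 there were 0. Between neurons and fibroblasts, Gclc (log2 0.78 ± 0.13, edgeR adjusted p = 0.000619) and Gpx4 (0.50 ± 0.13, 0.00989) passed beside 22.9% of all genes, and 1 passed without Per2-/- day 4. Fth1 did not pass there (log2 0.16 ± 0.13, edgeR adjusted p = 0.399). The split of all calls moved with the scaling: 76.1% were higher in macrophages than in fibroblasts by TMM, 40.4% with library totals alone and 56.2% with DESeq2's size factors, and 31.7%, 46.3% and 50.6% were higher in neurons than in macrophages. For neurons against fibroblasts it was 48.8% by TMM and 38.7% with library totals alone. The median difference over all genes moved by -0.19 with library totals and -0.12 with size factors (macrophages against fibroblasts) and by 0.12 and 0.14 (neurons against macrophages).

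None of the 10 genes passed between genotypes in any of the 3 classes. With the days as repeats, the share of all genes called by edgeR was 0 in neurons labelled Per1-/- and 0.00685% in those labelled Per2-/-, 0.0156% and 0 in macrophages, and 0 and 0 in fibroblasts. At an unadjusted p under 0.05 there were 708 and 791 genes in neurons, 1199 and 2016 in macrophages and 1699 and 1282 in fibroblasts, and DESeq2 called 27 and 32, 77 and 222, and 319 and 109. The member with the largest fold was Slc7a11 in macrophages, with 0.792, 2.68 and 0.324 CPM in WT (days 4, 7 and 10), 3.95, 4.43 and 3.13 in Per1-/- and 8.90, 1.69 and 2.90 in Per2-/-. Each Per1-/- library exceeded each WT library, with a log2 difference of 1.42 ± 0.67 that did not pass (edgeR adjusted p = 0.558). The WT values on days 4 and 10 rest on 3 and 2 UMI. Without the Per2-/- day 4 library, Srxn1 and Txnrd1 passed as lower in Per2-/- macrophages (log2 -0.73 and -0.60), in a fit that called 901 of 12922 genes against 0 with every library.

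The other genes of these pathways were taken from lists with none of the 10 genes in them (the plot of gene lists). Of NRF2 and its regulators, 0 of 9 were higher and 5 lower in neurons than in macrophages, beside 46.8% and 39.4% of all genes. Their median log2 was -0.58 beside 0.17 over all genes. That count is on the TMM scale, and with library totals alone 4 were higher and 4 lower. Nfe2l2 itself stood at 17.8 CPM at the median in neurons, 199 in macrophages and 78.3 in fibroblasts, and its ranges in the 3 classes did not overlap. Its log2 difference was -3.98 ± 0.17 against macrophages (edgeR adjusted p = 5.84e-15) and -2.43 ± 0.16 against fibroblasts (edgeR adjusted p = 1.26e-11). Mafk, a small MAF partner, and the repressor Bach1 were lower in neurons than in macrophages too (-2.54 and -1.75), whereas Mafg, another partner, was higher in neurons than in fibroblasts (0.62) and Nfe2l1 lower (-0.69). Keap1 stood at medians of 62.4, 42.3 and 51.6 CPM in neurons, macrophages and fibroblasts, a narrower spread than that of Nfe2l2. In CPM it was higher in neurons than in macrophages in 9 of 9 libraries with no overlap, whereas its log2 difference on the TMM scale was -0.12 ± 0.06 (edgeR adjusted p = 0.0505). Against fibroblasts it was lower in neurons on the TMM scale (log2 -0.23) and higher with library totals alone (0.235), and it passed by edgeR on both. Of the counts of lists given below, 4 others also turned with library totals alone, which gave 9 higher and 8 lower in neurons for thioredoxin and peroxiredoxin genes against fibroblasts. The same totals gave 9 higher and 7 lower than in macrophages for the selenoprotein list, 10 and 9 for lipid peroxidation, and 6 and 4 for handling and heat shock genes. Some counts that did not turn moved as well. Against fibroblasts, these totals gave 8 iron genes higher and 12 lower in neurons, and 7 and 15 of the other NRF2 targets.

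Of 27 other NRF2 targets tested, 20 were lower and 5 higher in neurons than in macrophages, 18 lower and 4 higher than in fibroblasts, and 16 were higher and 7 lower in macrophages than in fibroblasts, beside 39.4% and 46.8%, 41.6% and 38.3%, and 36.1% and 45.8% of all genes. Their median log2 differences were -1.63, -0.96 and 1.31, beside 0.17, -0.04 and -0.19 over all genes tested and -1.49, -0.69 and 1.16 over the 10. Blvrb, which reduces biliverdin after heme oxygenase has made it, stood at 10.5 CPM in neurons, 320 in macrophages and 75.3 in fibroblasts. Gdf15, a stress cytokine, was at 0.203 CPM in neurons and 15.02 in macrophages. Gstm1 was lower in neurons than in either class, at 6.86 CPM against 123 and 62.1, while Gsta4 and Gstm2 were lower in macrophages than in fibroblasts by log2 -4.98 and -3.87, as was Me1, the malic enzyme that supplies NADPH (-3.97).

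**Figure D4:**
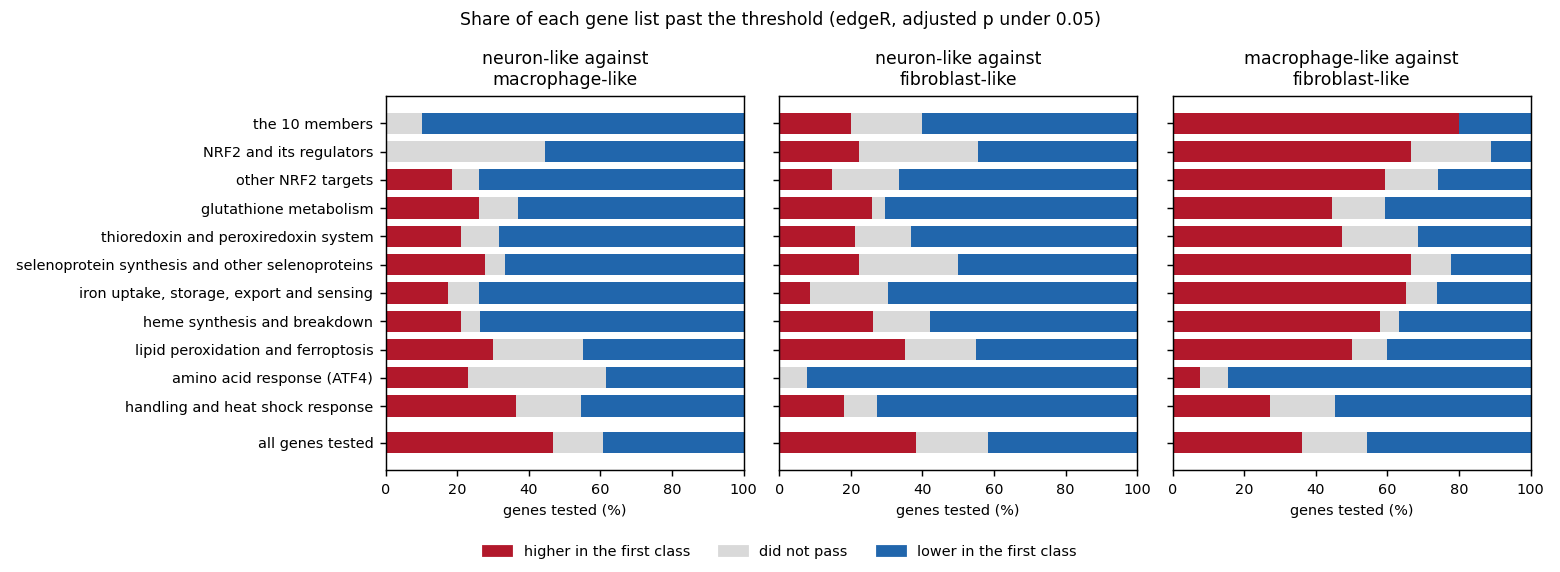
Share of the tested genes of each list, in percent, that were higher (red), lower (blue) or did not pass (grey) between pairs of classes by edgeR at an adjusted p under 0.05, with all genes tested at the bottom. The amino acid response list is almost wholly blue in neurons and in macrophages against fibroblasts, with 24 and 22 of 26 genes lower.

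Of 27 glutathione genes, 17 were lower and 7 higher in neurons than in macrophages, and 19 lower and 7 higher than in fibroblasts. Over all genes tested, 39.4% were lower and 46.8% higher than in macrophages, and 41.6% and 38.3% than in fibroblasts. Ggt7, of the gamma-glutamyltransferase family, was one of the 7 higher in neurons, at 34.1 CPM in neurons and 0.258 in macrophages. Gpx1, the abundant cytosolic peroxidase, stood at 65.7 CPM in neurons against 673 and 218.5 in macrophages and fibroblasts, and Gpx3 at 3.26 against 37.2 and 20.4. Gpx7 and Gpx8, which act in the endoplasmic reticulum, were lower in macrophages than in fibroblasts by log2 -5.22 and -5.60. By day 10, 11 of 25 glutathione genes had risen in neurons and 1 had fallen, beside 21.7% and 19.7% of all genes, led by the cysteine and glutamate transporter Slc1a1 (log2 2.56 ± 0.26, edgeR adjusted p = 4.97e-05).

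Of 19 thioredoxin and peroxiredoxin genes, 13 were lower and 4 higher in neurons than in macrophages (39.4% and 46.8% of all genes), with Prdx1 at 272 against 1710 CPM and catalase (Cat) at 38.8 against 157. Against fibroblasts 12 were lower and 4 higher (41.6% and 38.3%), with Txnip, which inhibits thioredoxin, at 47.7 against 448 CPM. Of 18 genes of selenoprotein synthesis and other selenoproteins, 12 were lower and 5 higher in neurons than in macrophages and 12 higher and 4 lower in macrophages than in fibroblasts, where 36.1% and 45.8% of all genes were. Selenop, the secreted selenium carrier, stood at 21.5 CPM in neurons, 3835 in macrophages and 123 in fibroblasts, and its receptor Lrp8 at 44.6 in neurons and 2.07 in fibroblasts.

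Of 23 iron genes tested, 17 were lower and 4 higher in neurons than in macrophages, 16 lower and 2 higher than in fibroblasts, and 15 were higher and 6 lower in macrophages than in fibroblasts, beside 39.4% and 46.8%, 41.6% and 38.3%, and 36.1% and 45.8% of all genes. The phagosomal iron transporter Slc11a1 stood at 55.4 CPM in macrophages and at 0.203 and 0.198 in neurons and fibroblasts, and transferrin (Trf) at 107 against 1.01 and 1.05. The medium contained transferrin protein, which these counts do not measure. Tfrc, the transferrin receptor, was higher in both neurons (38.6 CPM) and macrophages (75.9) than in fibroblasts (3.47), by log2 2.998 ± 0.16 and 4.43 ± 0.16. The ferroxidase Heph was at 20.5 CPM in fibroblasts and 0.249 in macrophages. Cp, another ferroxidase, rose in macrophages by day 10 (log2 3.39 ± 0.42, edgeR adjusted p = 0.00288). Trf passed as higher on day 10 in neurons and fibroblasts, but at 1.01 to 3.30 CPM in neurons and 3.16 to 10.8 in fibroblasts it stood far below macrophages. The summed macrophage markers in both classes were higher on day 10 as well. They stood at 66.7 to 202.5 CPM against 23.5 to 63.1 on day 4 in neurons, and 54.6 to 127 against 21.97 to 43.0 in fibroblasts. The part of free RNA from macrophages in the Trf change was not tested.

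Of 19 heme genes, 14 were lower and 4 higher in neurons than in macrophages (39.4% and 46.8% of all genes), with Blvra at 12.5 against 174 CPM, while Bach2, a relative of Bach1, was higher in neurons (63.9 against 1.85). Hmox2, the constitutive heme oxygenase, stood at 44.2, 134 and 39.2 CPM in neurons, macrophages and fibroblasts. Spic, a factor of iron-recycling macrophages, rose in macrophages by day 10 (log2 3.03 ± 0.27, edgeR adjusted p = 0.000469). Among 20 genes of lipid peroxidation, 9 were lower and 6 higher in neurons than in macrophages, a lower share near the 39.4% of all genes, led by the phagocyte oxidase genes Cybb (0.526 against 421 CPM) and Cyba (54.8 against 1859), with Mboat2, a lipid acyltransferase, the other way (36.8 against 0.387). Acsl4, which loads membranes with oxidisable fatty acids, was higher in neurons than in fibroblasts (108 against 13.1 CPM), and Alox5 fell in macrophages by day 7 (log2 -2.16 ± 0.31, edgeR adjusted p = 0.0376).

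Of the 26 genes of the amino acid response list, to which Slc7a11 would also belong, 24 were lower and 0 higher in neurons than in fibroblasts (41.6% and 38.3% of all genes, median log2 -1.52), and 22 were lower and 2 higher in macrophages than in fibroblasts (45.8% and 36.1%, median log2 -1.52). Trib3, a target and inhibitor of ATF4, stood at 2.41 CPM in neurons and 30.3 in fibroblasts, Phgdh, which opens serine synthesis, at 21.5 and 131, and Pck2 at 14.2 and 107. Atf3 was one of the exceptions, at 88.4 CPM in macrophages against 3.68 in fibroblasts. In fibroblasts 13 of 26 fell by day 10 and 1 rose, beside 9.28% and 10.4% of all genes. Of 11 handling and heat shock genes, 5 were lower and 4 higher in neurons than in macrophages, shares near the 39.4% and 46.8% of all genes, and 8 lower and 2 higher than in fibroblasts (41.6% and 38.3%), with Fos at 6.35 CPM in neurons, 140 in macrophages and 52.3 in fibroblasts. The part of such handling genes in the differences of the 10 genes was not tested.

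The genes whose levels were most like each of the 10 were found by Pearson's r of log2(CPM + 1) over the 27 class and library sums. This was done among 9546 genes with a mean of at least 10 CPM, as a description only. The points share classes, libraries and depth, and r also takes in which class holds most of a gene. Fth1 was nearest to Psap (0.995) and Creg1 (0.994), Ftl1 to Syngr2 (0.993) and Tgfb1 (0.993), and Hmox1 to Oser1 (0.977) and Bin3 (0.974). Nqo1 was nearest to Rab13 (0.983) and Txndc5 (0.983), and Gclc to Uchl3 (0.972) and Cfl1 (0.966). Srxn1 was nearest to Gsr (0.962), the glutathione reductase and an NRF2 target, and to Card19 (0.960). Txnrd1 was nearest to Orc2 (0.939) and Cse1l (0.932), Gpx4 to Vegfb (0.920) and Hmox2 (0.918), Gclm to Ptpn12 (0.833) and Zdhhc18 (0.831), and Slc7a11 to Eif3c (0.832) and Sumf2 (0.816).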

How the data were processed

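Per the deposited files, the authors made UMI counts per gene and barcode from 10x Chromium 3′ v3.1 libraries with Cell Ranger on mm10. Their notes name version 7.1, whereas the file headers name 4.0.0 (days 4 and 7, 31053 genes) and 6.0.0 (day 10, 32285 genes), and the 30406 shared gene IDs were used. They hold 99.29% or more of each library's UMI. Barcodes under 3000 UMI or over 20% mitochondrial UMI were dropped, leaving 81943, and 8442 were left out as doublets by Scrublet score, at 0.8% per 1000 barcodes. Cells were clustered with scanpy 1.11.5 (2000 variable genes, 30 components, 15 neighbours, Leiden at resolution 1, 27 clusters). The genes described here, Ftl1-ps1, the pathway lists and the mitochondrial genes, 222 in all, were left out of the clustering. Clusters were named from markers. Clusters with over 25% doublets, a limit set after seeing the data, or with markers of no class stayed unnamed. So did a cluster whose leading genes held more markers of another class than of its own. Counts were summed per class and library and tested with edgeR 4.0.16 (quasi-likelihood, TMM, filterByExpr, Benjamini-Hochberg over all genes, threshold 0.05, R 4.3.3), two-sided. Class contrasts used the library as a block, and day and genotype contrasts used the other as a factor. Levels are CPM of a class sum, and shares were taken after thinning each cell to 3000 UMI. Precision follows depth: exact 95% Poisson and Clopper-Pearson intervals were computed per library, and a count of 0 was given a floor of 3 UMI, all covering counting error only.

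The 10 genes and the pathway lists were chosen with earlier results of these data known. Genes named beside the 10 are, per list and class contrast, the 3 with the largest log2 fold among those past the threshold, at 10 CPM or more on average in the higher class and alike in sign in 9 of 9 libraries, and, per day contrast, the 2 with the largest log2 fold past the threshold over all lists. Nfe2l2, Keap1 and Hmox2 levels and genes named as exceptions were added after their values were seen. The alternatives were DESeq2 1.42.0, its size factors, no filter on low counts, doublets kept, Leiden at resolution 0.5 (17 clusters), no library block, sums thinned to the smallest, Y-linked transcripts as a covariate and leaving out each library. The doublet-rich cluster counted as neurons and library totals alone were added after seeing the data. At resolution 0.5 the classes held partly other cells than at resolution 1.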

Additional observations from a re-analysis of the deposited data

Results flagged for a closer look

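Each value here is a difference between 2 cell classes in their change from day 4 to day 10 that passed edgeR's interaction test over 16732 genes, in 3 of 3 genotypes. In neurons minus macrophages the log2 differences were 1.54 for Srxn1, 0.65 for Txnrd1, 0.58 for Gclm, 0.82 for Gclc and 0.83 for Fth1. Of all genes, 23.8% passed there. In neurons minus fibroblasts they were 0.78 for Gclc and 0.50 for Gpx4, a share of the members near the 22.9% of all genes. In macrophages minus fibroblasts, where 7.91% of all genes passed, they were -0.90 for Srxn1, -0.75 for Gclm and -0.67 for Fth1. Srxn1, Gclm and Fth1 are in both comparisons that include macrophages, and Gclc in both that include neurons. The comparisons share libraries and classes, so that they are not independent of each other, and the part of the changing cluster mix in each class and of the day 10 gene table was not tested.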

How the results depend on the processing

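Depth limits Nqo1 in neurons and Slc7a11 in macrophages, and with 1 culture per genotype and day a call rests on libraries that stand in as repeats. No paired analysis was possible because the labels give no replicate numbers to pair by, beyond the classes of a library and the days of a genotype, which the fits already pair. Of 2992 values of single genes over contrasts and settings, 2829 kept their side of the threshold and, where called, their direction (164 that passed in neither fit had the other sign), 99 lost and 62 gained a call, and 2 called values turned sign: Txnrd1 to 0.18 and Gclm to 0.16 in neurons against macrophages with library totals alone. Leaving out libraries gave 9 to 10 calls among the 10 genes in neurons against macrophages, 8 to 8 against fibroblasts and 10 to 10 in macrophages against fibroblasts. Class by day gave 1 to 3 (neurons and fibroblasts), 0 to 3 (macrophages and fibroblasts) and 3 to 5 (neurons and macrophages, and 3 with the doublet-rich cluster as neurons). Neuron day 7, with 1 call, gave 0 to 2, and 0 by DESeq2, at resolution 0.5 and with the doublet-rich cluster, and 2 with no filter. Neuron day 10, with 6, gave 1 to 6, and 3 by DESeq2, at resolution 0.5, with the doublet-rich cluster and with the Y-linked covariate. Macrophage day 7, with 0, gave 0 to 1, and 5 by DESeq2 and at resolution 0.5, 4 with no filter and 1 with doublets kept or library totals. Macrophage day 10, with 4, gave 1 to 6, and 7 by DESeq2, with doublets kept, at resolution 0.5 and with library totals, and 1 with the Y-linked covariate. Macrophages labelled Per2-/- gave 0 to 2. Fibroblast day 7 gave 0 to 1, and 1 by DESeq2, and day 10 gave 0 to 2, and 1 with the Y-linked covariate. Over all genes, DESeq2 called 1564 in fibroblasts on day 7 (490 by edgeR). Macrophage day 7 (47) gave 497 with no filter, 436 at resolution 0.5, 98 with doublets kept, 1 with the Y-linked covariate and 0 to 78 without a library, and day 10 (1973) gave 249 with the covariate and 444 to 2074. Neuron day 7 (2414) gave 1485 at resolution 0.5, 999 with the doublet-rich cluster and 1194 to 3004. Fibroblast day 7 gave 0 to 654, and day 10 (3302) gave 2023 with the covariate and 1309 to 2653. The class by day counts were 236 to 1338 (1324, macrophages and fibroblasts) and 2281 to 3813 (3832, neurons and fibroblasts). Genotype counts of 0 to 2 reached 79 and 106 in neurons, 51 and 155 in macrophages and 4 in fibroblasts (Per1-/-) with no filter, and 901 without Per2-/- day 4 (Per2-/- macrophages) and 717 without Per1-/- day 4 (Per1-/- fibroblasts). The cause was not tested, beyond the fewer samples of a fit without a library.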
